A study of Mus musculus with 20 samples.

Results

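Blastomere removal was isolated by setting blastocysts from biopsied embryos against blastocysts from embryos that went through the same exposures and kept all their cells. The set comprised 8 of the 20 arrays of the series, 4 in each group, chosen by their titles alone. Every array was an Affymetrix MOE430 2.0 array hybridised with RNA from a pool of 20 mouse blastocysts of the CF1 strain. The biopsy group came from 8-cell embryos that were placed in calcium- and magnesium-free (CMF) medium, had the zona pellucida opened with acid Tyrode's solution and lost a single blastomere to a pipette. The CMF_acid group came from 8-cell embryos given the CMF medium and the acid Tyrode's solution with no cell taken. Embryos of both groups were then cultured singly and collected 96 h after hCG, so the medium, the acid and the later culture were common to both, and no other treatment is given for either group. The remaining 12 arrays, of untreated embryos and of embryos given CMF alone or acid alone, entered the fit and give reference levels. The replicates of each group are numbered 2 to 5, and no label ties pools to a day of collection. The p-values therefore measure the spread between these pools, part of which may be technical. The RNA was amplified linearly in 2 rounds before it was labelled.

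At the 8-cell stage the blastomeres of the mouse embryo flatten against each other through E-cadherin, a calcium-dependent adhesion molecule, and begin to polarise. The outer cells later form the trophectoderm, which pumps fluid into the cavity, and the inner cells form the pluripotent epiblast and the primitive endoderm that lines it. Cells of this stage can change fate, so an embryo that loses a blastomere can still form a blastocyst, with fewer cells. A pool's RNA cannot tell fewer cells of a type from less RNA per cell, and each array was normalized to a common scale, so total RNA per embryo was not measured.

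CMF_acid replicate 5 stood apart from the other arrays. Of the 25553 probe sets tested, those called Present on at least 3 of the 20 arrays, 2886 lay over 1 log2 from the median of the other 19 arrays. The same count was between 68 and 287 on every other array. Its mean correlation with the other arrays was 0.985 against at least 0.994 for the rest, 44.3% of its probe sets were called Present against 47.9% or more, and its actin 3 prime to 5 prime ratio was 4.22 against 3.06 or less. Its Gapdh ratio of 3.99 lay within the range of the series. Within the CMF_acid group the median SD per probe set was 0.232 log2 with this array and 0.136 without it, against 0.132 in the biopsy group. The main counts and the list medians below are therefore given with and without it, and so are many of the single genes. A gene difference printed with no setting is from all 20 arrays, and detection calls were counted only with this array. The labels name the sex of all 8 pools as female, yet the Y-linked genes Kdm5d and Uty were called Present on all 8 arrays, with log2 intensities of 5.56 to 8.16 for Kdm5d.

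**Figure D1:**
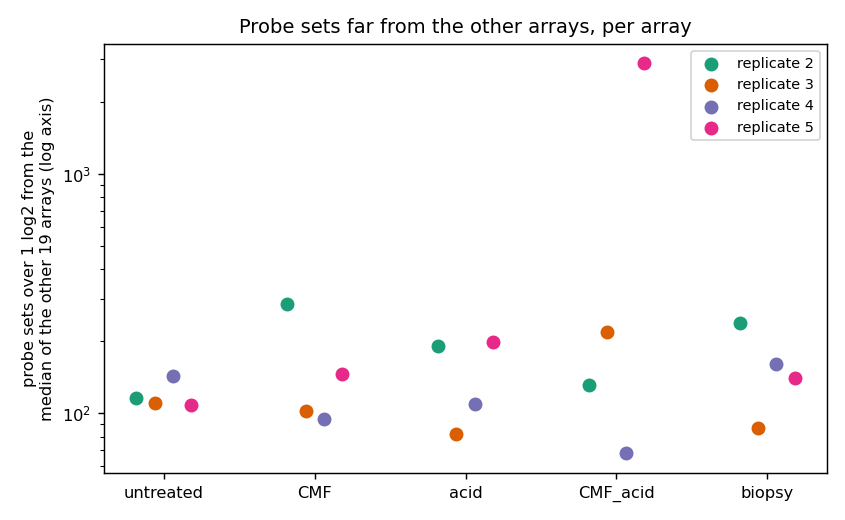
Number of probe sets per array that lay over 1 log2 from the median of the other 19 arrays (log axis), by group, each point an array coloured by replicate number. CMF_acid replicate 5 stands at 2886 and the other 19 arrays between 68 and 287.

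The genes with the lowest p in the comparison were Tmx3, Prnp and Tmem167 on the higher side in biopsied embryos and Saal1, Atg13 and Gdf3 on the lower side, and none of them passed the test. Limma with Benjamini-Hochberg adjustment called 0 of 25553 probe sets (0%) at an adjusted p under 0.05, and the lowest adjusted p was 0.617. With the threshold set on the unadjusted p, at 0.05, 1881 probe sets passed (7.36%), of which 1216 were higher in biopsied embryos (4.76%) and 665 lower (2.6%), and ordinary least squares gave 988 and 659 with 0 called. Without CMF_acid replicate 5, 0 were called as well, the lowest adjusted p was 0.9999, and 739 probe sets (2.89%) passed the unadjusted threshold, 489 higher (1.91%) and 250 lower (0.978%). Leaving out 1 array thus cut the number of low p-values by over 1.5 times. With the replicate number as a block in that fit, 0 were called, the lowest adjusted p by limma was 0.561, and 727 were higher and 428 lower at the unadjusted threshold. Differences were above 0 for 47.8% and below it for 52.2% of probe sets, or 45.5% and 54.5% without that array, whereas 70.6% were above 0 with the software signal, the array software's own summary deposited beside the GC-RMA values.

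**Figure D2:**
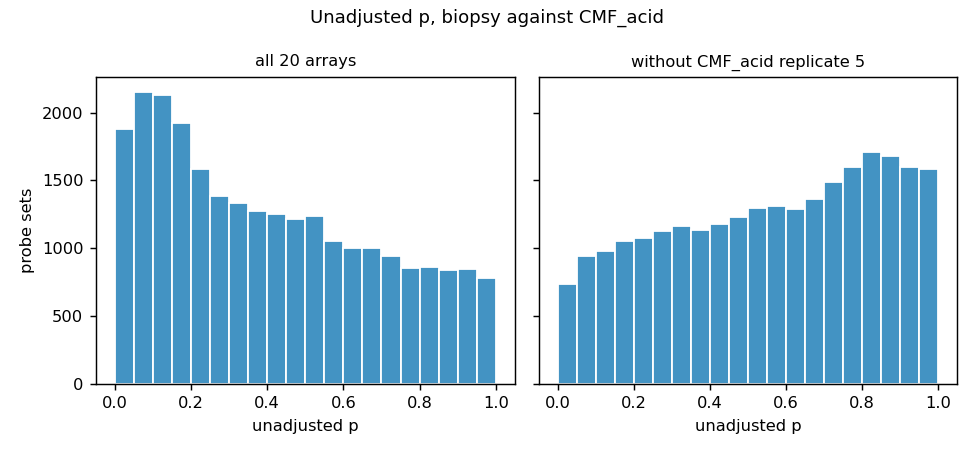
Number of probe sets in 20 bins of the unadjusted limma p for biopsy against CMF_acid, with all 20 arrays (left) and without CMF_acid replicate 5 (right). Neither fit had the replicate number as a block. The bin from 0 to 0.05 holds 1881 probe sets on the left and 739 on the right, where bins near 1 hold more, 1586 in the last.

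The distances between arrays showed the same. The SD of the log2 difference between 2 arrays had a median of 0.303 within the biopsy group (6 pairs) and 0.371 among CMF_acid replicates 2 to 4 (3 pairs). Between the groups, without CMF_acid replicate 5, the median was 0.324 (12 pairs), which lay between the medians within groups. Pairs of a biopsy and a CMF_acid array with the same replicate number stood at 0.251 to 0.332 (3 pairs), and those with different numbers at 0.284 to 0.407 (9 pairs). The 7 distances to CMF_acid replicate 5 ran from 0.629 to 0.694.

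The median SE of a difference was 0.139 log2, and the 95% interval of the difference lay within 1 log2 of 0 for 23685 probe sets (92.7%) and within 0.5 log2 of 0 for 15320 (60.0%). Without CMF_acid replicate 5 these shares were 96.4% and 71.7%. Differences over 1 log2 in size were measured for 63 probe sets (0.247%), or 23 (0.09%) without that array.

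On the higher side, Tmx3, a disulfide isomerase of the endoplasmic reticulum (probe set 1419926_at), had log2 intensities of 4.93, 4.84, 4.39 and 4.79 in biopsy replicates 2 to 5 and of 4.19, 4.01, 3.89 and 4.24 in CMF_acid. All 4 biopsy arrays lay above all 4 CMF_acid arrays, a separation that 386 probe sets (1.51%) showed in this direction, or 537 (2.1%) without CMF_acid replicate 5. The difference was 0.66 ± 0.12 log2 (SE of limma, n = 4 per group, as for all values with all 20 arrays), or 0.71 ± 0.13 without CMF_acid replicate 5, where 3 CMF_acid arrays remain, as for all such values, and the 3 other tested probe sets of Tmx3 had the same sign. Its level in biopsied embryos, 4.74 ± 0.24 (SD, n = 4), lay above those of untreated (4.13), CMF (4.26) and acid (4.14) embryos as well as of CMF_acid (4.08), in the low range of the array, where the median level of tested probe sets was 7.82.

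Prnp, which encodes the prion protein (1448233_at), stood at 5.49, 5.94, 5.89 and 6.07 in biopsy replicates 2 to 5 and at 5.29, 5.39, 4.88 and 4.93 in CMF_acid. The groups did not overlap, and the difference was 0.72 ± 0.16, or 0.66 ± 0.17 without CMF_acid replicate 5. The other tested probe set of Prnp had the opposite sign.

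Tmem167, a small membrane protein of the secretory pathway (1423208_at), was well expressed, at 9.91, 10.02, 9.99 and 9.84 in biopsy and 9.39, 9.39, 9.60 and 9.57 in CMF_acid. These groups were also separate, by 0.45 ± 0.10, or 0.47 ± 0.11 without replicate 5. Untreated embryos stood between them at 9.74 ± 0.18 (SD, n = 4). Of the 4 other probe sets of Tmem167, 2 had the same sign with all arrays, and 4 had it without CMF_acid replicate 5.

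Brwd3, an X-linked bromodomain protein (1439775_at), stood at 10.54 to 10.77 in biopsy and 9.94 to 10.47 in CMF_acid. The difference was 0.47 ± 0.11, or 0.38 ± 0.10 without CMF_acid replicate 5. Of its 2 other probe sets, 1 had the same sign with all arrays, and 2 had it without that array. Map3k7, which encodes the kinase TAK1 of TGF-beta and NF-kappaB signalling, differed by 0.29 ± 0.07 and was also separate between the groups. Mindy3, a deubiquitinase, differed by 0.44 ± 0.11, Osbpl6, of the oxysterol-binding lipid transfer proteins, by 0.39 ± 0.09, and Ccdc127 by 0.26 ± 0.06, each without overlap. The other probe set of Mindy3 had the opposite sign, and of the 2 other probe sets of Osbpl6, 1 had the same sign. Osbpl6 was low, at 4.15 to 4.94, and was called Present on 4 biopsy arrays and 2 CMF_acid arrays. Stau2, an RNA-binding protein of messenger transport, differed by 0.32 ± 0.08, with its lowest biopsy array at 8.11 and its highest CMF_acid array at 8.12.

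Elavl2, an RNA-binding protein that stabilises messengers (1421882_a_at), had the largest difference among the 12 leading genes on this side, 0.97 ± 0.24, with 7.17, 8.13, 7.77 and 7.04 in biopsy against 6.48, 6.65, 7.0 and 6.13 in CMF_acid. Its 2 other probe sets had the same sign, and without CMF_acid replicate 5 the difference was 0.82 ± 0.25. Zdhhc24, a palmitoyltransferase, differed by 0.88 ± 0.22, or 0.72 ± 0.22 without replicate 5, with biopsy replicate 5 at 6.68 below CMF_acid replicate 2 at 6.81. Nectin3, an adhesion molecule of adherens junctions, stood at 8.31, 8.65, 8.17 and 8.28 in biopsy and 7.62, 8.18, 7.87 and 7.26 in CMF_acid, a difference of 0.62 ± 0.15. The groups overlapped, at 8.17 in biopsy and 8.18 in CMF_acid, and CMF_acid replicate 5 was the lowest array. For Zdhhc24 and Nectin3 the untreated means of 6.89 and 8.22 lay nearer to the biopsy means of 7.14 and 8.35 than to the CMF_acid means of 6.26 and 7.73. These CMF_acid means include replicate 5.

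On the lower side, Gdf3, a growth factor of pluripotent cells (1449288_at), stood at 10.01, 9.72, 9.75 and 10.01 in biopsy and at 10.27, 10.09, 10.34 and 10.51 in CMF_acid. The groups did not overlap, which 170 probe sets (0.665%) showed in this direction, or 262 (1.03%) without CMF_acid replicate 5. The difference was -0.43 ± 0.12, or -0.36 ± 0.13 without CMF_acid replicate 5, the adjusted p by limma was 0.617, and the other probe set of Gdf3 had the same sign.

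Atg13, of the complex that starts autophagy, stood at 10.60 to 10.90 in biopsy and 10.99 to 11.38 in CMF_acid, a difference of -0.41 ± 0.11. Tada3, an adaptor of histone acetyltransferase complexes, differed by -0.35 ± 0.10, and here the biopsy mean of 9.89 equalled the untreated mean of 9.89 while CMF_acid stood at 10.24. Wdr6, a WD-repeat protein, differed by -0.27 ± 0.08 by the probe set 1455940_x_at and by -0.27 ± 0.13 by its other one. Gatb, a subunit of the mitochondrial glutamyl-tRNA amidotransferase, differed by -0.27 ± 0.08, Yif1b, of transport between endoplasmic reticulum and Golgi, by -0.32 ± 0.09, and Saal1 by -0.18 ± 0.05, with both other Saal1 probe sets of opposite sign. All of these were separate between the groups with and without CMF_acid replicate 5, except the second Wdr6 probe set, which was separate only without it.

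Cit, the citron kinase of cytokinesis, stood at 8.19, 8.26, 7.95 and 8.45 in biopsy and 8.48, 8.72, 8.48 and 9.33 in CMF_acid, a difference of -0.54 ± 0.16 that was -0.35 ± 0.12 without replicate 5. Its 3 other probe sets had the same sign. Vps8, an endosomal tethering factor, differed by -0.40 ± 0.12 and Gmfb, a regulator of branched actin, by -0.22 ± 0.07, both opposite in sign with the software signal of the array files, at 0.09 and 0.03, and the 3 other probe sets of Gmfb were opposite too. Myo10, a myosin of filopodia, differed by -0.39 ± 0.11.

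Jam2, a junctional adhesion molecule (1431417_at), stood at 7.90, 8.03, 7.34 and 7.88 in biopsy and 8.58, 8.38, 7.98 and 8.88 in CMF_acid. The difference was -0.67 ± 0.19, or -0.53 ± 0.19 without CMF_acid replicate 5, and its 3 other tested probe sets had the same sign. The biopsy mean of 7.79 lay below the means of untreated (8.46), CMF (8.44) and acid (8.28) embryos too, whereas CMF_acid was at 8.45.

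**Figure D3:**
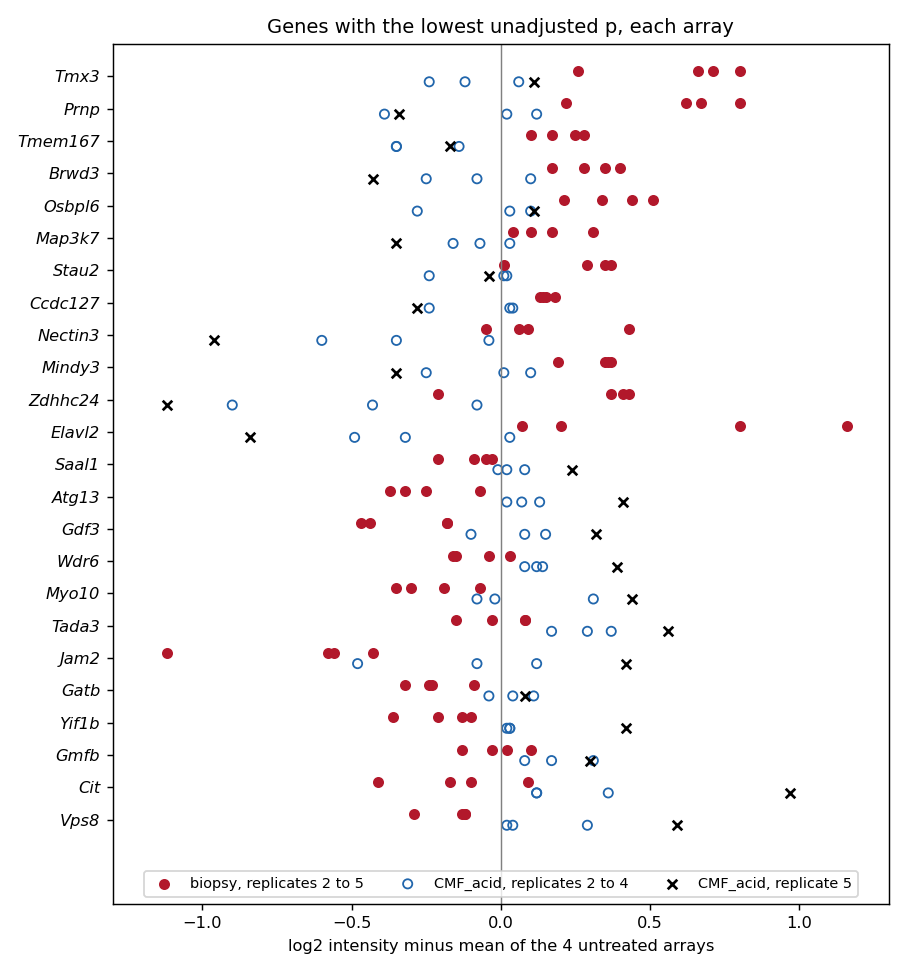
Log2 intensity of each array minus the mean of the 4 untreated arrays, for the 12 genes per direction with the lowest unadjusted p in biopsy against CMF_acid. Filled points are the 4 biopsy arrays, open points CMF_acid replicates 2 to 4 and crosses CMF_acid replicate 5. None of these genes passed the test, and for 17 of the 24 the cross is the CMF_acid array farthest from the biopsy mean. That share was not counted over all tested probe sets, where this array was the lowest of CMF_acid for 34% and the highest for 41.8%.

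Without CMF_acid replicate 5, Tmx3, Osbpl6 and Tmem167 had the lowest p on the higher side, and Prnp, Stau2 and Saal1 stayed among the 8 leading genes of their side. None passed the threshold, with an adjusted p of 0.9999 at the lowest by limma, and the genes below were added to the leading ones. Ero1a, the oxidase that recharges disulfide isomerases in the endoplasmic reticulum (1419029_at), stood at 10.11, 10.07, 10.23 and 10.09 in biopsy and 9.76, 9.72, 9.53 and 8.02 in CMF_acid. Replicate 5 was the low array, and the difference was 0.86 ± 0.27 with it and 0.45 ± 0.11 without it. Both other probe sets of Ero1a had the same sign, the brightest of them at 0.30 ± 0.14 and 0.12 ± 0.11 without that array. Rps6ka6, an X-linked ribosomal S6 kinase, stood at 10.01 to 10.24 in biopsy and at 9.62, 9.35, 9.61 and 7.73 in CMF_acid, with differences of 1.03 ± 0.30 and 0.58 ± 0.15 in the same order. Tmf1, a Golgi protein, differed by 0.37 ± 0.09 without replicate 5 and by 0.26 ± 0.10 with it, and its other probe set had the opposite sign.

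Lower without that array were Slc37a2, a sugar-phosphate transporter, and Nuak1, a kinase related to AMPK. Slc37a2 (1452492_a_at) stood at 11, 10.96, 10.64 and 10.70 in biopsy and 11.55, 11.33, 11.10 and 11.07 in CMF_acid, a difference of -0.50 ± 0.15 without replicate 5 and -0.44 ± 0.14 with it, and the groups did not overlap. CMF_acid (11.26), CMF (11.30), acid (11.32) and untreated (11.33) embryos had close means, and biopsied embryos stood at 10.82 ± 0.18 (SD, n = 4). Nuak1 differed by -0.81 ± 0.25 without the array and by -0.70 ± 0.24 with it. Tram2, of the translocon of the endoplasmic reticulum, whose other probe set had the opposite sign, differed by -0.72 ± 0.19 and -0.53 ± 0.21 in that order, Lman2l, a lectin of the secretory pathway, by -0.49 ± 0.15 and -0.39 ± 0.15, and Got1l1 by -0.16 ± 0.05 and -0.14 ± 0.05.

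Gene lists were then described by their members, with the brightest tested probe set standing for each gene. Over all 12025 genes tested, 5956 (49.5%) were higher in biopsied embryos, 6069 (50.5%) were lower, and the median difference was -0.003 log2. Without CMF_acid replicate 5, 5523 (45.9%) were higher and 6502 (54.1%) lower, with a median of -0.005. The unadjusted threshold was passed by 8.71% of genes (5.86% higher, 2.84% lower), and by 3.14% without that array (2.15% higher, 0.99% lower). The groups were separate for 1.72% of genes on the higher side and 0.773% on the lower, or 2.23% and 1.12% without it. No member of any list passed over all probe sets in either fit. Single arrays moved many of these medians: leaving out 1 of the 8 arrays in turn, the median of 19 of the 34 lists took the other sign at least once. Of the other 15, 4 turned when arrays were weighted by their quality, namely p53 targets, immediate early genes, junction genes and cavitation genes. With the software signal the median of all probe sets was 0.132, and 0.050 without that array, so list medians from that signal are given relative to these shifts.

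Of the lineages, primitive endoderm markers and epiblast markers had more members lower in biopsied embryos than higher. Among primitive endoderm markers 17 of 22 tested were lower, with a median of -0.089, and 19 of 22 without CMF_acid replicate 5, with a median of -0.129. Relative to the shift the software signal gave -0.109 and -0.089. Before the shift was taken off, 13 of 22 were higher by that signal, and 10 of 22 without that array. With 1 array left out, the median ran from -0.165 without biopsy replicate 2 to -0.043 without CMF_acid replicate 2. The same list had been lower in biopsied than in untreated embryos in earlier results of these arrays, so it is no independent evidence of its direction. Cubn, an endocytic receptor of this layer (1452270_s_at), stood at 9.47, 9.26, 9.44 and 9.96 in biopsy and 9.63, 10.13, 10.44 and 10.35 in CMF_acid, a difference of -0.60 ± 0.20. Biopsy replicate 5 was the high array of its group and CMF_acid replicate 2 the low one, and these overlapped. Hnf4a, a transcription factor, differed by -0.44 ± 0.21, or -0.18 ± 0.15 without replicate 5, and was called Present on 1 array of each group. Col4a1, a collagen of the basement membrane, differed by -0.23 ± 0.12, and with the software signal by 0.01.

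Inner cell mass and epiblast markers were lower for 13 of 21 members with a median of -0.046, and for 17 of 21 with a median of -0.138 without CMF_acid replicate 5. Relative to the shift, the software signal gave -0.012 and -0.046, although 16 of 21 members were higher by that signal before the shift was taken off. Without biopsy replicate 4 the median was -0.014, with 12 of 21 lower. Adding the replicate number as a block to the fit without CMF_acid replicate 5 gave -0.127, with 19 of 21 lower. Beside Gdf3, Klf5, a transcription factor of pluripotency, stood at 14.38 to 14.63 in biopsy and 14.64 to 15.03 in CMF_acid, without overlap, and differed by -0.22 ± 0.08, or -0.14 ± 0.07 without replicate 5. Its other probe set had the opposite sign. Utf1, a chromatin protein of pluripotent cells, differed by -0.41 ± 0.17 and -0.23 ± 0.14 in that order. Zfp42, known as Rex1, differed by 0.24 ± 0.13, and by 0.04 ± 0.06 without replicate 5, whose value of 13.19 lay below the 13.97 to 14.15 of the other 7 arrays. The score of the list, the mean log2 deviation of its members from the mean of all arrays, was 0.053, -0.008, -0.236 and -0.054 in biopsy replicates 2 to 5 and 0.098, 0.090, 0.026 and -0.302 in CMF_acid, so that CMF_acid replicate 5 was the lowest of the 20 arrays.

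Trophectoderm markers took either sign with 1 array left out, from -0.047 to 0.047. With all arrays they were divided, with 11 of 20 higher and a median of 0.008, and 5 of 20 higher with a median of -0.026 without CMF_acid replicate 5. The software signal, relative to its shift, gave 0.026 and -0.015. Gata3, a transcription factor of this lineage, stood at 12.77 to 13.21 in biopsy and at 13.13, 12.97, 12.92 and 11.99 in CMF_acid, and its difference of 0.24 ± 0.18 became -0.01 ± 0.10 without replicate 5. Id2, an inhibitor of helix-loop-helix factors, behaved alike, at 0.24 ± 0.13 and 0.07 ± 0.09.

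**Figure D4:**
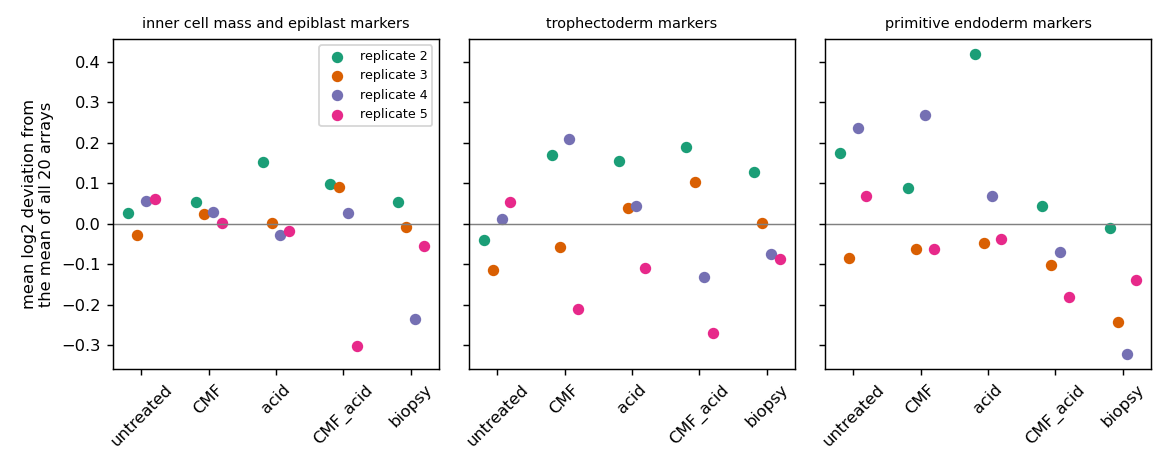
Mean log2 deviation of the tested markers of each lineage from the mean of all 20 arrays, each point an array coloured by replicate number, for the 5 groups. The biopsy and CMF_acid arrays overlap in each panel, and CMF_acid replicate 5 is the lowest array for inner cell mass and trophectoderm markers, at -0.302 and -0.270.

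Oocyte and maternal transcripts, left from before the embryo's own transcription, were higher for 9 of 15 members with a median of 0.043, and for 8 of 15 with a median of 0.001 without CMF_acid replicate 5, and relative to the shift the software signal gave -0.034 and 0.011, so the list had no stable direction. Nlrp5, of the subcortical maternal complex (1418882_at), stood at 6.51, 6.71, 6.54 and 6.35 in biopsy and 6.21, 6.28, 6.11 and 6.32 in CMF_acid. These did not overlap, the difference was 0.30 ± 0.08, or 0.33 ± 0.09 without replicate 5, and the gene was called Present on 2 biopsy arrays and on 0 CMF_acid arrays, so the size is not measured on the CMF_acid side. Padi6, of the same complex, differed by 0.40 ± 0.15 and Nlrp14 by 0.46 ± 0.21, both with overlap. Of 17 cumulus and granulosa cell markers, genes of the cells around the oocyte, 5 were tested, with a median of -0.034, or -0.002 without that array.

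Genes of the 2-cell stage had the lowest list median, -1.138 over 5 tested members, and a single array set it. Tcstv1 stood at 8.06 in CMF_acid replicate 3 and at 2.56 to 2.73 in the other 7 arrays, Tcstv3 at 6.90 against 2.20 to 2.45, and Zfp352 at 8.36 against 2.65 to 4.00. Without CMF_acid replicate 3 the list median was -0.021, Tcstv3 differed by 0.02 and Zfp352 by 0.26.

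The medians of several stress and death lists lay above 0 with CMF_acid replicate 5 in the fit and nearer to 0 without it. Regulators of apoptosis had a median of 0.109 with it and -0.017 without it (12 and 8 of 20 higher), immediate early genes 0.089 and 0.008 (12 and 11 of 20), and heat shock proteins and chaperonins 0.10 and -0.003 (17 and 12 of 24). Endoplasmic reticulum chaperones stood at 0.141 and 0.005 (17 and 12 of 24). Once the replicate number was added as a block to the fit without that array, these 4 lists stood at -0.010, 0.025, -0.002 and -0.049 in the same order. With the software signal, relative to its shift, these 4 lists stood at 0.138, 0.154, 0.088 and 0.094 with the array and at 0.053, 0.080, -0.015 and -0.001 without it. Birc2, an inhibitor of caspases, illustrates this, at 10.48, 10.41, 10.43 and 10.46 in biopsy and 10.28, 10.34, 10.24 and 8.68 in CMF_acid. Its difference was 0.56 ± 0.26 with the array and 0.16 ± 0.09 without it, and the groups did not overlap. Casp2, a caspase, went from 0.55 ± 0.29 to 0.12 ± 0.14, the immediate early gene Jun from 0.72 ± 0.41 to 0.14 ± 0.24, and the phosphatase gene Dusp1 from 0.44 ± 0.20 to 0.25 ± 0.18. Ier3, another early response gene, went from 0.46 ± 0.21 to 0.22 ± 0.17.

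Hspa1a, an inducible chaperone, stood at 4.64, 6.19, 6.10 and 5.33 in biopsy and 4.61, 5.47, 4.79 and 3.41 in CMF_acid, and differed by 0.99 ± 0.43, or 0.61 ± 0.41 without replicate 5. Hspb1, a small heat shock protein, differed by -0.50 ± 0.23 and -0.38 ± 0.24. Among the chaperones, Pdia4, a disulfide isomerase, stood at 7.89 to 8.40 in biopsy and 8.27 to 9.02 in CMF_acid, a difference of -0.47 ± 0.16, or -0.45 ± 0.18 without replicate 5. Calr, the calcium-binding lectin calreticulin, differed by -0.20 ± 0.09, and Edem1, of protein degradation from the endoplasmic reticulum, by 0.20 ± 0.07.

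Target genes of p53, which responds to DNA damage, were higher for 15 of 20 members in both fits, with medians of 0.085 and 0.060 without CMF_acid replicate 5, and of 0.077 and 0.068 with the software signal relative to its shift. The direction was not stable, since with array weights the median was -0.038 with 10 of 20 higher, and without biopsy replicate 4 it was 0.028 with 12 of 20 higher. The list scores of biopsy replicates 2 and 3, at -0.043 and -0.237, lay below those of CMF_acid replicates 2 and 3, at 0.063 and -0.1, while biopsy replicates 4 and 5, at 0.292 and 0.286, lay above all CMF_acid arrays. Perp, a desmosomal protein that p53 induces, stood at 11.07, 11.12, 10.91 and 11.25 in biopsy and 10.91, 10.92, 10.74 and 10.47 in CMF_acid, a difference of 0.33 ± 0.12, or 0.23 ± 0.11 without replicate 5. Rrm2b, a subunit of ribonucleotide reductase, differed by 0.37 ± 0.16 and 0.27 ± 0.16, and its 3 other probe sets had the same sign. Ddit4, an inhibitor of mTOR signalling, differed by 0.63 ± 0.33, with CMF_acid replicate 2 at 11.33 inside the biopsy range of 10.69 to 11.39.

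Oxygen-responsive genes were higher for 12 of 18 members with a median of 0.084, and for 11 of 18 with 0.079 without CMF_acid replicate 5, and by the software signal relative to its shift the medians were 0.097 and 0.043. Bnip3, a mitochondrial protein induced at low oxygen, differed by 0.11 ± 0.05. Amino acid transporters were higher for 12 of 18 members with a median of 0.065, and for 13 of 18 with 0.071 without that array, against 0.138 and 0.060 by the software signal. Without CMF_acid replicate 3 the median turned to -0.041 with 8 of 18 higher, and without biopsy replicate 2 it was 0.028 with 9 of 18 higher. Slc38a9, the arginine sensor of the lysosome, stood at 9.78, 9.36, 9.82 and 9.85 in biopsy and 9.54, 9.22, 9.32 and 9.19 in CMF_acid, a difference of 0.39 ± 0.13. Slc6a14, an X-linked transporter of neutral and basic amino acids, differed by 0.49 ± 0.19 and Slc7a3, a cationic amino acid transporter, by 0.91 ± 0.39, or 0.55 ± 0.37 without replicate 5. Slc7a6, which exchanges basic for neutral amino acids, differed by -0.25 ± 0.09.

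The integrated stress response list had 11 of 21 members higher and medians of 0.005 and 0.028 without CMF_acid replicate 5, but single arrays moved it from -0.068 without biopsy replicate 2 (7 of 21 higher) to 0.142 without CMF_acid replicate 2 (14 of 21 higher). Array weights gave 0.104, with 15 of 21 higher. A fit with the replicate block and without CMF_acid replicate 5 gave 0.073, with 14 of 21 higher. Mthfd2, a mitochondrial enzyme of folate metabolism, differed by 0.40 ± 0.19. Oxidative stress genes had medians of 0.044 and 0.018, and Gclm, of glutathione synthesis, differed by 0.20 ± 0.10.

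Genes of junctions and polarity showed no shared direction without CMF_acid replicate 5. Adherens and tight junction and desmosome genes had a median of 0.096 with it and 0.001 without it (15 and 14 of 28 higher), and genes of polarity and the Hippo pathway 0.000 and -0.004 (13 of 26 higher in both). Jam2, by its brightest probe set, differed by -0.39 ± 0.19, or -0.51 ± 0.20 without the array. Cldn3, a claudin, differed by -0.40 ± 0.17, and F11r, another junctional adhesion molecule, by 0.45 ± 0.23, or 0.12 ± 0.13 without the array. Mob1b, an activator of the LATS kinases (8.81, 8.95, 9.07 and 9.01 in biopsy, 8.52, 8.73, 8.78 and 6.94 in CMF_acid), was separate between the groups. Its difference was 0.72 ± 0.28 with replicate 5 and 0.28 ± 0.10 without it. Rhoa, a GTPase of the actin cortex, differed by -0.17 ± 0.06, and with the software signal by 0.01.

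For cavitation, the sodium pump and aquaporin list had a median of -0.009, or -0.022 without CMF_acid replicate 5, and the pump subunit Atp1b3 differed by 0.40 ± 0.18, or 0.15 ± 0.12 without it. Slc12a2, a cotransporter of sodium, potassium and chloride, stood at 11.25 to 11.36 in biopsy and at 10.64, 11.08, 10.99 and 11.58 in CMF_acid. Its difference was 0.22 ± 0.19, or 0.38 ± 0.18 without replicate 5.

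Of the cytoskeleton and microvilli list 18 of 26 were lower, and 19 of 26 without CMF_acid replicate 5, with a median of -0.047 in both fits. The software signal gave -0.076 and -0.023 relative to its shift, although 18 of 26 were higher by it before the shift was taken off, with and without that array. Without biopsy replicate 4 the median was -0.021. Pfn1, the actin-binding profilin (1449018_at), stood at 11.58, 11.64, 11.52 and 11.64 in biopsy and 11.83 to 12.34 in CMF_acid. The groups were separate, and the difference was -0.46 ± 0.18, or -0.37 ± 0.19 without replicate 5. Untreated embryos had a wide spread for Pfn1, 11.74 ± 0.53 (SD, n = 4). Tubb5 and Tubb2a, both beta-tubulins, differed in opposite directions, by -0.23 ± 0.10 and 0.25 ± 0.11. Of the adhesion receptors and integrins 12 of 17 were lower in both fits, with medians of -0.067 and -0.046. The software signal gave -0.076 and -0.041 relative to its shift, although 12 of 17 were higher by it before the shift was taken off, with and without that array. Without biopsy replicate 3 the median was -0.013, with 9 of 17 lower. Dag1, the matrix receptor dystroglycan, differed by -0.23 ± 0.09 and the integrin Itga3 by -0.34 ± 0.16.

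Signalling genes of the FGF, Nodal and BMP pathways had a median of 0.008, and -0.068 without CMF_acid replicate 5. The adaptor Grb2 differed by -0.16 ± 0.08, and the receptor Bmpr2 by 0.41 ± 0.21, or 0.09 ± 0.10 without that array.

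Of the cell cycle lists, the median of mitosis genes took the other sign without CMF_acid replicate 5, and also without biopsy replicate 5, at -0.008. The median of DNA replication and repair genes kept its sign whichever biopsy or CMF_acid array was left out. Mitosis and anaphase-promoting complex genes stood at 0.017, and at -0.056 without CMF_acid replicate 5 (13 and 21 of 31 lower), and by the software signal relative to its shift at 0.066 and -0.031. With the replicate number as a block and without that array, 26 of 31 were lower, with a median of -0.052. Anapc5, a subunit of that complex, stood at 14.30 to 14.49 in biopsy and 14.49 to 14.60 in CMF_acid and differed by -0.13 ± 0.06. The spindle factor Tpx2 differed by -0.28 ± 0.11 and the kinetochore protein Cenpf by 0.32 ± 0.13. DNA replication and repair genes had medians of 0.047 and 0.008, with Gmnn, the inhibitor of origin licensing, at 0.37 ± 0.16 and 0.13 ± 0.08 without that array, and the replication factor Gins1 at -0.14 ± 0.06.

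Among genes of biosynthesis and energy, the median of cholesterol and fatty acid synthesis genes differed most between the fits. Of its 26 tested members 15 were lower with a median of -0.010, and 20 were lower with a median of -0.162 once CMF_acid replicate 5 was left out, while by the software signal relative to its shift the median was 0.008 with that array and -0.118 without it. Without CMF_acid replicate 2 the median was 0.061, with 16 of 26 higher. Dhcr7, which makes cholesterol in the last step of the pathway, stood at 12.01, 11.66, 11.69 and 11.64 in biopsy and 12.18, 12.09, 12.03 and 11.79 in CMF_acid. Biopsy replicate 2 and CMF_acid replicate 5 were the arrays that overlapped, and the difference was -0.27 ± 0.11, or -0.35 ± 0.11 without replicate 5. Hmgcs1, of the first steps, differed by -0.27 ± 0.15 and -0.20 ± 0.16, and Mvk, mevalonate kinase, by -0.36 ± 0.18, but by 0.07 with the software signal.

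Oxidative phosphorylation subunits were lower for 16 of 28 members with a median of -0.022, and for 23 of 28 with -0.061 without CMF_acid replicate 5. The software signal gave -0.025 and -0.055 relative to its shift. Before the shift was taken off, 21 of 28 were higher by it, and 13 of 28 without that array. Without CMF_acid replicate 3 the median turned to 0.016. Cox7a2, of cytochrome c oxidase, differed by -0.17 ± 0.06 and Cyc1, cytochrome c1, by -0.23 ± 0.10, or -0.11 ± 0.06 and -0.16 ± 0.10 without that array. Glycolysis and pyruvate genes had medians of 0.058 and 0.038, with the aldolase Aldoa at -0.17 ± 0.07 and the lactate transporter Slc16a1 at 0.60 ± 0.30, or 0.18 ± 0.18 without the array. Cytosolic ribosomal protein genes were lower for 11 of 19, and for 14 of 19 without it, with medians of -0.005 and -0.037, and Rpsa differed by -0.12 ± 0.05.

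For ribosome assembly and nucleolar genes the medians were 0.066 and -0.006. Utp15, of the small subunit processome, stood at 11.63, 11.71, 11.60 and 11.62 in biopsy and 11.39, 11.33, 11.42 and 10.37 in CMF_acid, separate between the groups, and differed by 0.51 ± 0.17, or 0.26 ± 0.08 without replicate 5. Mybbp1a, a nucleolar protein, differed by -0.24 ± 0.11. Proteasome subunits went from 0.031 to -0.047 without that array, and Psma1, a subunit of the catalytic core, from 0.29 ± 0.15 to 0.06 ± 0.06. The replicate block without that array gave a proteasome median of -0.027, with 21 of 29 lower.

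DNA methylation and chromatin genes had medians of -0.029 and -0.041 without CMF_acid replicate 5, and the deacetylase Hdac2 went from 0.50 ± 0.25 to 0.10 ± 0.07. Smarca4, the ATPase of a chromatin remodeller, differed by -0.19 ± 0.08, but by 0.03 with the software signal. Imprinted genes, expressed from a single parental allele, had medians of -0.022 and -0.015. Of these Plagl1, a zinc finger gene, stood at 9.67, 10.31, 9.77 and 10.39 in biopsy and 8.95, 9.13, 9.91 and 9.60 in CMF_acid, with overlap, and differed by 0.64 ± 0.32, or 0.71 ± 0.35 without replicate 5. The lysosomal list had medians of 0.002 and -0.017, the implantation and trophoblast adhesion list 0.011 and -0.018, and the list of sex-linked genes 0.036 and 0.066 over 5 members.

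**Figure D5:**
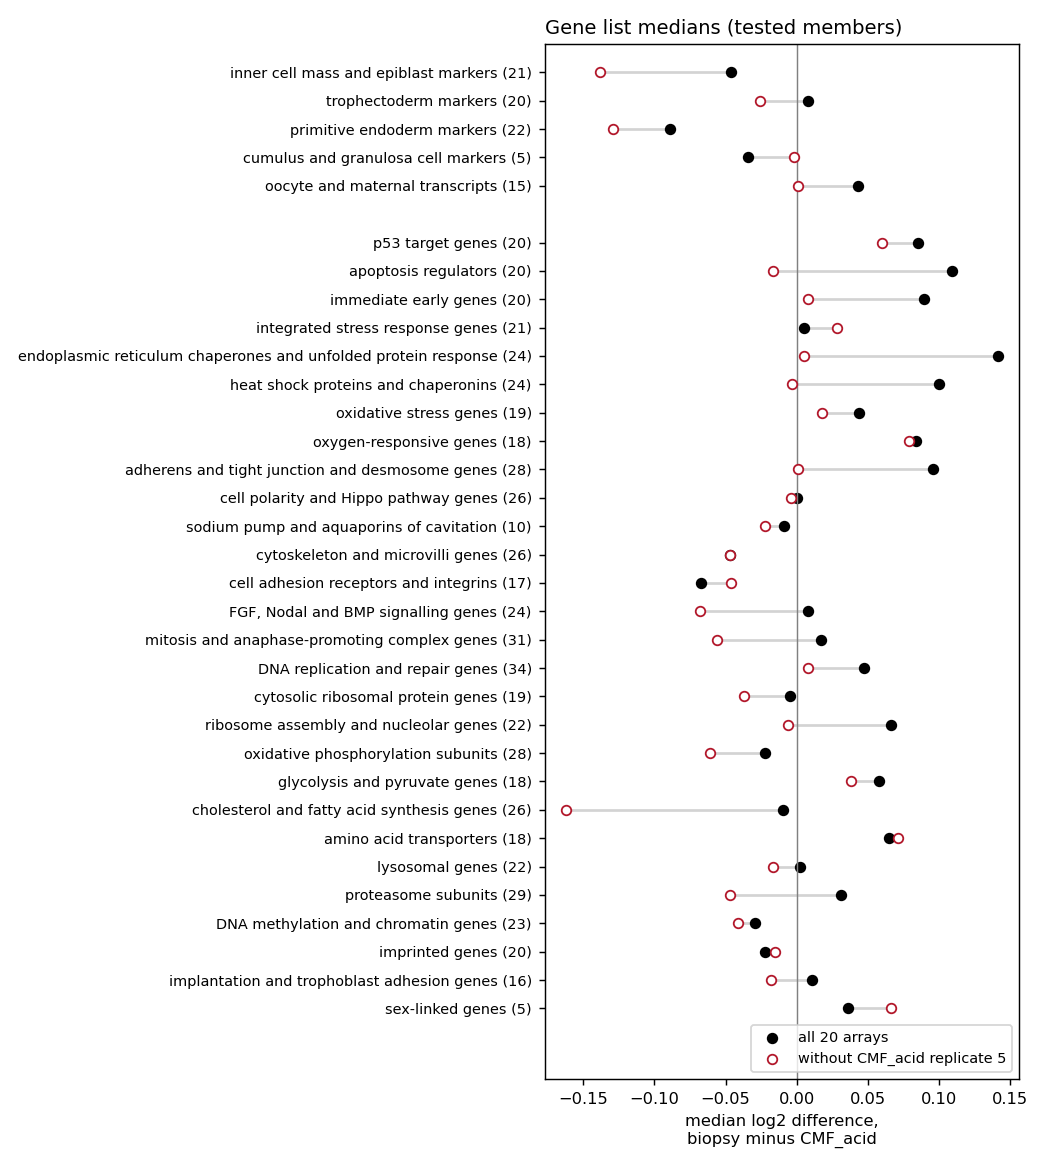
Median log2 difference of the tested members of each list, biopsy minus CMF_acid, with all 20 arrays (filled) and without CMF_acid replicate 5 (open), with the number of tested members in brackets; the list of 2-cell genes, at -1.138 and -1.512, lies outside the axis and is not drawn. Many filled points to the right of 0 have open points near 0, and the open point of cholesterol and fatty acid synthesis genes is the lowest drawn, at -0.162.

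In CMF_acid replicate 5, 2466 probe sets lay over 1 log2 below the median of the other arrays and 420 above it. Over all tested probe sets, however, it was the highest CMF_acid array for 41.8% and the lowest for 34%. Among probe sets Present on at least 15 arrays, Hars2, a mitochondrial histidyl-tRNA synthetase, stood at 2.89 against 7.73 to 8.17 in the other 7 arrays of the comparison. Anapc4, a subunit of the anaphase-promoting complex, stood at 4.69 against 9.36 to 9.76 in the other 7 arrays, Cul3, a scaffold of ubiquitin ligases, at 3.09 against 7.19 to 8.04, and the phosphatase Ppm1a at 3.69 against 7.97 to 8.64. Higher in that array was Fabp6, a bile acid binding protein, at 10.51, although it varied widely, from 5.13 to 8.50, in the other 7. The difference for Ppm1a was 1.04 ± 0.77 with that array and -0.16 ± 0.29 without it, and for Anapc4 it was 1.27 ± 0.74 and 0.08 ± 0.16.

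Detection calls gave few splits between the groups. Of the 21292 tested probe sets with a single gene symbol, 14 were Present on all 4 biopsy arrays and on 0 CMF_acid arrays, and 1, of Otud7a, the other way. CMF_acid replicate 5 had the lowest share of Present calls of the series, 44.3% against 47.9% or more. Its part in these counts was not tested. Intu, a planar polarity gene, stood at 4.82, 3.14, 3.14 and 3.64 in biopsy and 2.94 to 3.08 in CMF_acid, all low signals, and Plcxd2 at 2.68 to 4.12 against 2.62 to 2.70. Since a group with no Present call has no measured level, these differences have no measured size.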

How the data were processed

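The main values came from the series table that the authors deposited, GC-RMA intensity values made, per the series design text, in Array Assist Lite 3.4, which subtracts background, normalizes between arrays and summarises each probe set. They are on a linear scale, and log2 was taken here. Each array's deposited table held, per the file headers, a software signal (intensity), a Present or Absent call and the call's p-value, which served for the filter and as an alternative. After 64 control probe sets were left out, 25553 of 45101 probe sets, Present on 3 or more arrays, were tested with limma 3.58.1 in R 4.3.3 (lmFit and eBayes, group means of all 20 arrays, two-sided, Benjamini-Hochberg over all probe sets, called at an adjusted p under 0.05). The fit was also run on simulated normal values with no outlying array, so that run does not cover an array such as CMF_acid replicate 5. The number of arrays limits the precision. Platform annotation gave 34958 probe sets a single gene symbol, 932 several and left 9211 unnamed, and 34754 were matched to current symbols by gene number. Named genes were up to 12 per direction with the lowest p among probe sets Present on all 4 arrays of a group, up to 8 without CMF_acid replicate 5, up to 4 per list, and those split by detection or farthest off in that array. The members and 34 gene lists were chosen with earlier results of these data known, and some genes stand in several lists. Alternatives were another summary, filter, variance model, array weights, fewer arrays and the replicate number as a block. Deviations of same-numbered biopsy and CMF_acid arrays from their group means correlated at 0.117, 0.225 and 0.35 for numbers 2 to 4 without CMF_acid replicate 5. A fit without that array was therefore also run with the replicate number as a block. This rests on the data, since no label gives a pairing. Values without that array are from the fit with no block, and so are not paired, unless the block is named.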

Additional observations from a re-analysis of the deposited data

Results flagged for a closer look

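In each group of 4 arrays, the highest or lowest array was set apart when its gap to the nearest other, divided by the range, was above Dixon's 95% critical value. Of 300 such groups looked at, 48 were set apart, 30 of them by CMF_acid replicate 5, 6 by CMF_acid replicate 3 and 12 by a biopsy array. Chance sets apart about 1 in 20 groups that are independent and not chosen by their values. Here some genes were chosen for a low p or for lying far off in CMF_acid replicate 5. The groups also share arrays, so the count cannot be set against that rate.

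CMF_acid replicate 5 was the far array for its number of probe sets away from the other arrays (2886) and, within its group, for its Gapdh ratio (3.99). It lay high in log2 intensity for Yif1b (12.84), Utf1 (11.37) and Rhoa (14.26), and low for Ero1a (8.02), Rps6ka6 (7.73), Zfp42 (13.19), Birc2 (8.68), Casp2 (8.34), Dusp1 (8.94), Jun (6.96), Mob1b (6.94) and Bmpr2 (10.14). It was also low for Gmnn (12.79), Utp15 (10.37), Slc7a3 (4.40), Hdac2 (11.99) and Psma1 (14.05). Hars2 (2.89), Ppm1a (3.69), Cul3 (3.09) and Anapc4 (4.69), low there too, were chosen for that, and Otud7a (2.81) was high. Its list scores were low for apoptosis regulators (-0.48), immediate early genes (-0.39), heat shock proteins and chaperonins (-0.43), oxidative stress genes (-0.25), ribosome assembly genes (-0.18) and glycolysis genes (-0.29).

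CMF_acid replicate 3 lay high for Tcstv1 (8.06), Tcstv3 (6.90), Zfp352 (8.36) and the score of the list of 2-cell genes (3.18), and for the maternal gene Nlrp14 (6.69), and low for the Y-linked Uty (6.35).

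Of the biopsy arrays, replicate 2 lay low for Mindy3 (9.57) and Tubb2a (13.27) and high for Dhcr7 (12.01), Id2 (15.32), Hnf4a (8.27) and Zfp352 (4.00). Replicate 3 lay low for Slc38a9 (9.36) and high for Psma1 (15.10), replicate 5 lay low for Zdhhc24 (6.68) and Vps8 (9.33) and high for Plcxd2 (4.12), and replicate 4 had the high score of oxidative stress genes (0.10).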

How the results depend on the processing

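Limma called 0 probe sets under every alternative run, with a lowest adjusted p from 0.114 to 0.9999. The counts at an unadjusted p under 0.05, 1216 higher and 665 lower, ran from 489 to 2572 and from 250 to 1529 when any 1 array of either group was left out, lowest without CMF_acid replicate 5 and highest without CMF_acid replicate 2. They were 1531 and 909 with the replicate number as a block, 394 and 243 with only the 8 arrays, 1223 and 1136 with no detection filter, and 1158 and 467 with probe sets Present on all 4 arrays of a group. The software signal gave 1849 and 333, array weights 659 and 348, and ordinary least squares 988 and 659. Settings added after seeing the data, both without CMF_acid replicate 5, gave 727 and 428 with the replicate block and 600 and 268 with the software signal. Of the 1881 probe sets, 544 (28.9%) kept p under 0.05 and their sign without that array, 73.6% of its list.

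Deviations of same-numbered arrays of the groups correlated at 0.113, 0.250, 0.162 and -0.026 for numbers 2 to 5, so with all arrays the rule for pairs, over 0.1 for every number, was missed by the pair that holds CMF_acid replicate 5. Arrays with different numbers correlated at -0.223 to 0.176, so some of them were as close as same-numbered ones. Differences from 0 were above it for 47.8% of probe sets, 70.6% with the software signal, 29.0% with no filter and 55.9% with Present on all 4 arrays of a group.

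Of 111 named probe sets 96 kept their sign under every alternative. Many of them were chosen for a low p in these data, which favours a kept sign, and no share over all probe sets was counted. With the software signal Gmfb turned to 0.03, Vps8 to 0.09, Col4a1 to 0.01, Rhoa to 0.01, Gins1 to 0.07, Mvk to 0.07 and Smarca4 to 0.03, and with that signal and no CMF_acid replicate 5 Vps8 to 0.21, Rhoa to 0.03, Mvk to 0.05, Smarca4 to 0.00, Ppm1a to -0.11 and Anapc4 to -0.03. With 1 array left out, Gata3 ran from -0.01 (without CMF_acid replicate 5) to 0.37, and Tcstv3 from -1.54 to 0.02 and Zfp352 from -1.63 to 0.26, both highest without CMF_acid replicate 3. Likewise Ppm1a ran from -0.16 (without CMF_acid replicate 5, -0.21 with the block too) to 1.44, Fabp6 from -0.41 (without CMF_acid replicate 4) to 1.38, Kdm5d from -0.06 to 0.80 and Uty from -0.08 to 0.45, both lowest without biopsy replicate 5; Fabp6 and Uty were also below 0 without CMF_acid replicate 3, at -0.12 and -0.07. The cause was not tested. Of 578 list medians 22 moved by over 1 SD of the arrays' scores.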
